A study of Mus musculus with 24 samples.

Results

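RNA sequencing compared bone marrow–derived macrophages (BMDM) that received tunicamycin together with IL-4/IL-13 and BMDM that received IL-4/IL-13 alone. The comparison holds the 4 libraries labelled with tunicamycin and the 4 labelled with IL-4/IL-13 and no inhibitor, 8 of the 24 libraries of the series, and each group has 1 library of each of the mice that the labels number 1, 2, 4, and 5. The tests compare the groups without this pairing, which an alternative took in as a block. All groups were WT C57BL/6J cells from the same 4 female mice, 9 weeks old, grown from marrow of femur and tibia with M-CSF for 6 days. The dose of M-CSF is written as 50 µg/ml in the labels and as 50 ng/ml in the methods.

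IL-4/IL-13–treated macrophages were cultured with both cytokines for 24 h, each at 20 ng/ml. Tunicamycin-treated macrophages received tunicamycin (5 µg/ml) for 1 h before the cytokines. Fresh medium then held tunicamycin and both cytokines at those doses for 24 h. The vehicle given to the cells without inhibitor is not given in the sources used here. Levels in the other 4 groups are shown where they bear on the comparison: naive macrophages without cytokines, macrophages with IL-4/IL-13 and Sal003 (10 µM), and IL-4/IL-13 with oligomycin (1 µM) in 2 groups. Titles and library names disagree on which oligomycin group also received ISRIB, so they are called oligomycin set A (ISRIB by title) and set B (ISRIB by library name). The study reports that ISRIB lowered markers of the integrated stress response in cells with oligomycin. Effectors of that response had median log2 differences of tunicamycin of 0.50 from set A and 1.04 from set B. The labels were not assigned from these values. The model has a single dose and time of tunicamycin in cultured cells, and the cells were not sorted as far as the sources state.

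IL-4/IL-13 libraries held 16238727 to 19592076 reads counted on genes (median 18374214), and tunicamycin libraries held 17230982 to 20316948 (median 18667363). Levels are given as counts per 1000000 reads on genes with TMM scaling (CPM), as mean ± SD with n = 4 mice. CPM compares a gene between libraries, and levels of different genes are compared only after division by exon length. Replicates of a group differed by more than sampling noise (chi-square per gene, 2.21 to 6.90), so each library counted as its own replicate. On the leading principal component of all 24 libraries, the 4 tunicamycin libraries lay between 92.8 and 96.3 and the other 20 between −45.1 and 7.14.

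The cell type was checked with lists of markers, chosen with earlier results of these data known. Members named as leading or with the most counts were ranked by counts, without division by exon length. Macrophage markers were detected in all 8 libraries, with no member at 0 counts in any and *Lyz2* with the most counts. Of 10 members, 2 were at least 2.5-fold higher and 5 lower (median log2 fold change −0.72). Their counts summed to 214292 to 288635 in IL-4/IL-13 libraries and 315212 to 383980 in tunicamycin libraries. The 10 markers of neutrophils and granulocyte precursors summed to 402 to 862 counts per library with IL-4/IL-13, led by *S100a9*, and to 3 to 7 counts with tunicamycin, where 6 to 8 of the 10, *Camp* and *Elane* among them, were at 0 in each library. T cell markers summed to 8 to 22 counts and then 12 to 15 (*Lck* with the most counts, *Cd3d* at 0 in all 8 libraries). B cell markers summed to 242 to 398 and then 122 to 149 (*Ighm* with the most counts), and of 2 that were tested, 1 was at least 2.5-fold higher and 1 lower. Dendritic cell markers summed to 188 to 208 and then 29 to 49 (*Zbtb46* with the most counts), and all 5 tested were at least 2.5-fold lower. Fibroblast and stromal markers summed to 252 to 1562 counts and then 70 to 479 (*Col1a2* with the most counts), with mouse 5 lowest in both groups. Of 5 tested, 3 were at least 2.5-fold lower, or 1 without IL-4/IL-13 replicate 1. *Col1a2* itself stood at 41.8, 28.2, 23.5, and 8.32 CPM and then 14.99, 10.5, 12.3, and 2.24 CPM (log2 fold change −1.36, SE 0.64, edgeR adjusted *P* = 0.0569), and the edgeR adjusted *P* was 2.92e-11 with the mouse as a block. Mast cell markers gave 29 to 46 and then 9 to 25 counts. Endothelial markers gave 12 to 30 and then 61 to 85 (*Kdr* with the most counts), and erythroid markers 0 to 3 in every library. The part of these other cell types in the changes below was not tested. In bulk RNA, fewer cells of a type and less RNA per cell cannot be told apart.

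Tunicamycin is a nucleoside antibiotic that inhibits *Dpagt1*, the enzyme of the opening step of N-glycan assembly on dolichol. Without N-glycans many secretory and membrane proteins misfold in the ER, and the unfolded protein response (UPR) then acts through IRE1, ATF6, and PERK. IRE1 splices *Xbp1* mRNA and can degrade other ER-bound mRNAs, cleaved ATF6 activates chaperone genes, and PERK phosphorylates eIF2α, which lowers general translation and favors translation of *Atf4*, the center of the integrated stress response (ISR). IL-4 and IL-13 signal through receptors that carry Il4ra, itself a membrane glycoprotein, and through STAT6 to set the alternatively activated state of macrophages.

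Of 56884 genes in the table, 13679 were tested. A gene was counted as higher or lower when the adjusted *P* of the edgeR test (Benjamini-Hochberg, 13679 genes) was under 0.05 and the change was at least 2.5-fold. With tunicamycin 1171 genes were higher (8.56% of those tested) and 1917 were lower (14.0%), of which 250 and 566 changed at least 10-fold by the fitted value. By adjusted *P* alone, 5287 genes were higher (38.7%), 5150 were lower (37.6%), and 3242 did not pass. The CPM of the 4 tunicamycin libraries lay entirely above those of the 4 IL-4/IL-13 libraries for 5166 genes (37.8%) and entirely below for 4943 (36.1%). The median log2 fold change over all genes tested was 0.01. Tunicamycin libraries were at least 2.5-fold higher than each of the other 5 groups for 377 genes (2.76%) and lower than each for 620 (4.53%), from 5 tests that share the tunicamycin libraries. Of these genes, 101 of the 1171 were at 3 counts or fewer in every IL-4/IL-13 library and 309 of the 1917 in every tunicamycin library. With at least 10 counts required in every library, 697 of 11017 genes were higher and 1041 lower, and 195 higher and 290 lower than in each other group. All named genes that passed the test moved the same way in 4 of 4 mice. Genes named outside the rule given with the processing, such as members that ran against their list or that spell out a small count, were chosen after their values had been seen.

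**Figure D1:**
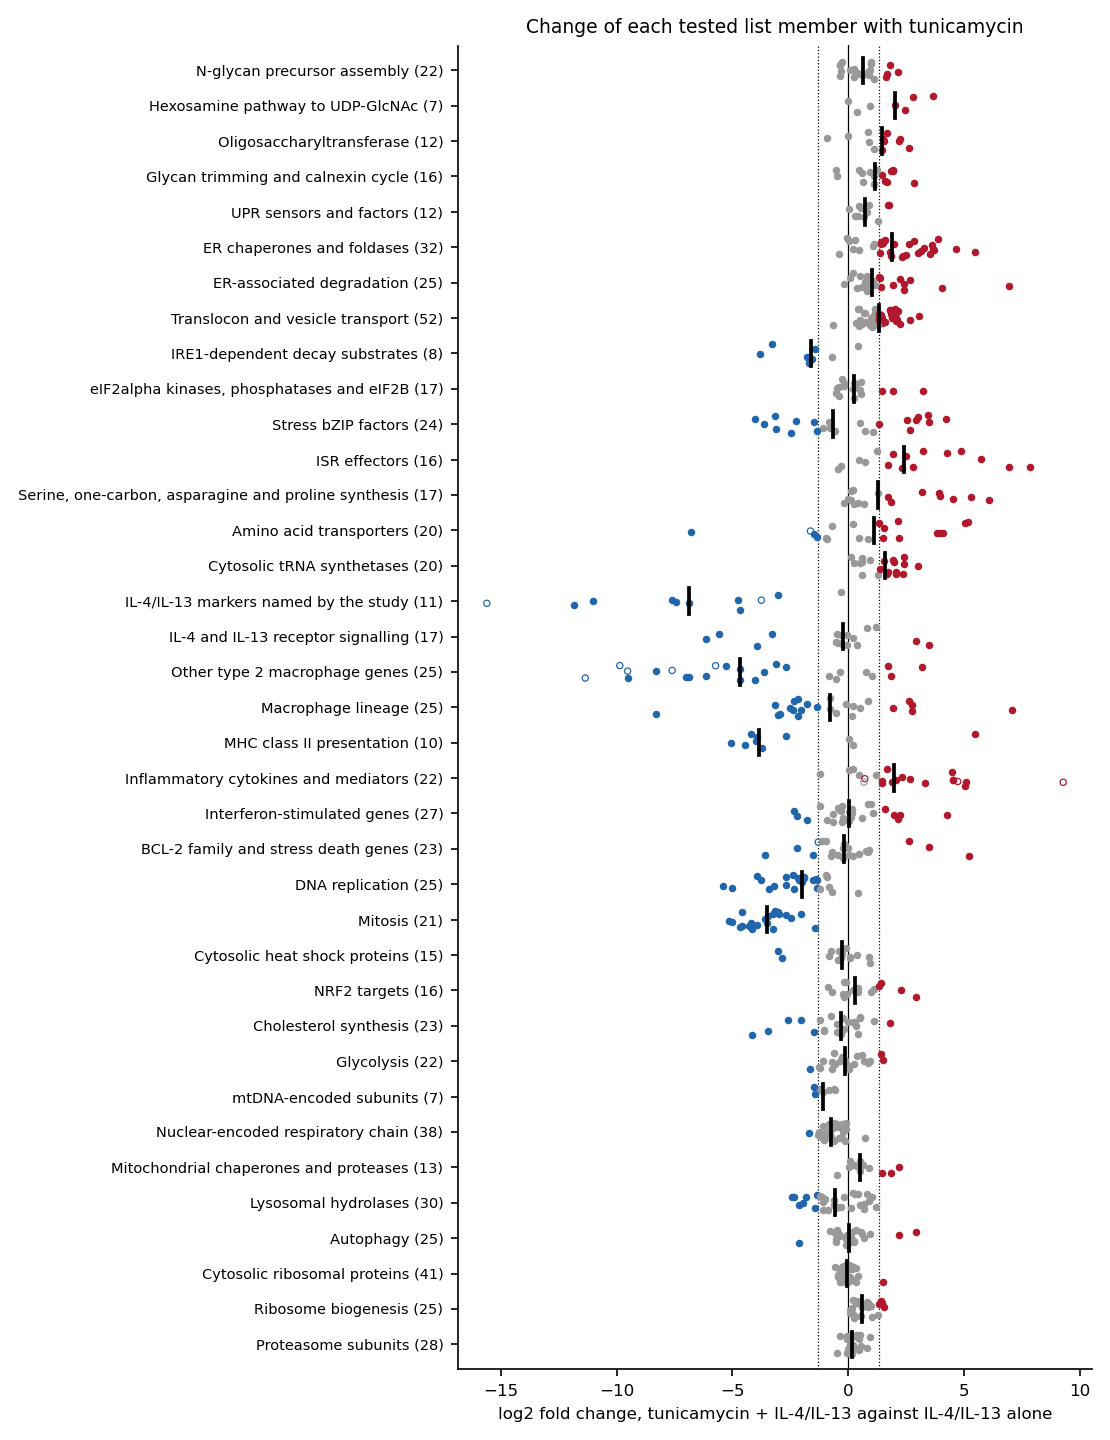
Log2 fold change of each tested member of 37 gene lists, tunicamycin with IL-4/IL-13 against IL-4/IL-13 alone (n = 4 mice per group), with the number of members tested in parentheses. Red dots are members at least 2.5-fold higher and blue dots at least 2.5-fold lower at an edgeR adjusted *P* under 0.05, and grey dots are neither. Open symbols mark members with 3 counts or fewer in every library of a group, drawn at the bound that this allows (0 where both groups are that low), thick bars are list medians with such members at the bound, the thin line is the median of all genes (0.01), and dotted lines are 2.5-fold. Medians ran from 2.42 for ISR effectors to −6.88 for IL-4/IL-13 genes that the study names.

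In each of 4 lists of N-glycosylation, some members were at least 2.5-fold higher with tunicamycin and none was that much lower. *Dpagt1* (chr9:44237316-44245247, plus strand, GRCm39), the target of tunicamycin, stood at 54.5, 56.8, 60.5, and 56.0 CPM in mice 1, 2, 4, and 5 with IL-4/IL-13 and at 185, 189.9, 186, and 178 CPM with tunicamycin (log2 fold change 1.70, SE 0.055, edgeR adjusted *P* = 2.88e-19). All tunicamycin libraries lay above all IL-4/IL-13 libraries, and the other 4 groups resembled the latter, at 51.7 to 65.02 CPM. Of 23 genes of N-glycan precursor assembly, 22 were matched and tested, 4 were at least 2.5-fold higher and none lower, and by adjusted *P* alone 16 were higher and 4 lower (median log2 fold change 0.64). Besides *Dpagt1*, these were the mannosyltransferases *Alg2* (from 31.0 ± 2.16 to 137 ± 4.78 CPM, log2 fold change 2.14), *Alg9* (1.79), and *Alg12* (1.62). *Dpagt1* and *Alg12* were higher with tunicamycin than in each of the other 5 groups.

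The hexosamine pathway makes UDP-GlcNAc, the sugar donor for Dpagt1. *Gfpt1*, its rate-limiting enzyme, stood at 32.9, 33.3, 34.9, and 35.3 CPM with IL-4/IL-13 and at 405, 461, 452, and 434 CPM with tunicamycin (log2 fold change 3.68, SE 0.057, edgeR adjusted *P* = 2.60e-25). The groups did not overlap, and oligomycin set A, the next highest group, was at 92.3 ± 2.09 CPM. Of 7 tested members (8 in the list, *Gfpt2* below the count filter), 4 were higher, all 4 also higher than in each other group, with a median of 2.03. The other 3 followed *Gfpt1* in the order of the pathway, *Gnpnat1* (log2 fold change 2.81), *Pgm3* (2.03), and *Uap1* (2.45).

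The oligosaccharyltransferase moves the finished glycan to the protein. Its catalytic subunit *Stt3a*, which acts as proteins enter the ER, rose from 184, 193, 233, and 186 CPM in the 4 IL-4/IL-13 libraries to 857, 904, 989, and 871 CPM (log2 fold change 2.19, SE 0.079, edgeR adjusted *P* = 2.36e-18), with no overlap. Of 12 subunits 7 were higher and none lower (median 1.47), with *Krtcap2* (2.61), *Ostc* (2.22), and *Stt3a* (2.19) the largest. *Rpn1* had the highest level per length (from 307 ± 20.4 to 984 ± 49.9 CPM, log2 fold change 1.68). *Tusc3*, a thioredoxin-like subunit, ran the other way, from 55.4 ± 4.60 to 29.1 ± 3.47 CPM (log2 fold change −0.93, edgeR adjusted *P* = 7.43e-09). In the glycan trimming and calnexin cycle, which folds glycoproteins by their glucose tags, 7 of 16 members were higher and none lower (14 and 2 by adjusted *P* alone, median 1.17). They included the cargo lectin *Lman1* (2.86), the glucosidase *Mogs* (1.92), and the lectin chaperone *Calr*, which had the highest level per length (from 1935 ± 103 to 7296 ± 392 CPM, log2 fold change 1.92). Oligomycin set A held 728 ± 27.0 CPM of *Calr*. At least 10% of the exon bases of *Alg9*, *Gnpnat1*, *Pgm3*, *Krtcap2*, and *Ostc* overlap another gene, and their counts are uncertain to that extent.

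Among the UPR sensors and their factors, 11 of 12 passed the test, all higher, but only *Ern1* and *Atf6* reached 2.5-fold (median 0.71). *Ern1*, which encodes IRE1α, stood at 77.3, 77.1, 84.6, and 79.9 CPM with IL-4/IL-13 and 269, 271, 283, and 265 CPM with tunicamycin (log2 fold change 1.77, SE 0.078, edgeR adjusted *P* = 1.51e-16). The groups did not overlap, and oligomycin set A was at 306 ± 17.2 CPM. *Atf6* (from 114 ± 9.71 to 373 ± 17.6 CPM, log2 fold change 1.70), *Creb3l2* (1.29), *Atf6b* (0.92, the highest level per length), *Creb3* (0.82), *Creb3l3* (0.71), *Creb3l1* (0.41), the ATF6 proteases *Mbtps2* (0.70) and *Mbtps1* (0.29), and *Eif2ak3*, which encodes PERK (0.55), passed by smaller amounts. *Xbp1* stood at 212, 225, 220.0, and 211 CPM and then 290.1, 301, 292, and 300.0 CPM (log2 fold change 0.45, SE 0.047, edgeR adjusted *P* = 4.60e-09). Its groups did not overlap although the change was small, and gene counts do not separate spliced from unspliced *Xbp1* mRNA. *Rtcb*, the ligase that joins the *Xbp1* exons, was at 95.8 ± 2.87 and 98.0 ± 3.58 CPM (log2 fold change 0.03, edgeR adjusted *P* = 0.593). At least 10% of the exon bases of *Xbp1*, *Creb3*, and *Mbtps2* overlap another gene.

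Known targets of these sensors include ER chaperones. Of 32 ER chaperones and foldases, 24 were higher and none lower (29 and 1 by adjusted *P* alone, median 1.90), and 21 were higher than in each of the other 5 groups. *Hspa5*, which encodes BiP, the main ER HSP70 and the repressor of the sensors, stood at 986, 1090.4, 1196, and 1021 CPM with IL-4/IL-13 and at 11562, 12836, 13209, and 11861 CPM with tunicamycin (log2 fold change 3.53, SE 0.074, edgeR adjusted *P* = 5.36e-23). It had the highest level per length of the list, its groups did not overlap, and the other 4 groups lay between 779 and 1130.1 CPM. Genes on the other strand overlap 44.2% of its exon bases. The largest rises were those of the prolyl isomerase *Fkbp11* (from 0.496 ± 0.178 to 22.9 ± 1.93 CPM, log2 fold change 5.49), the disulfide isomerase *Pdia5* (4.66), and the ER oxidase *Ero1a* (3.88). *Hspa5* cochaperones and exchange factors were among the others, *Hyou1* (from 175 ± 15.2 to 2287 ± 123 CPM, 3.71), *Dnajb9* (3.67), and *Dnajc3* (2.65), all 3 chosen after their values were seen. *Cnpy3*, a chaperone of Toll-like receptors, was lower by the test alone (from 123 ± 4.83 to 93.4 ± 3.09 CPM, −0.39), and *Cnpy2* and *Fkbp7* did not pass.

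ER-associated degradation (ERAD) moves misfolded proteins back to the cytosol for destruction. Of 25 members 10 were higher and none lower (23 and 1 by adjusted *P* alone, median 1.01), and 7 were higher than in each other group. *Derl3*, a channel protein of that route, stood at 1.56, 1.71, 1.47, and 1.40 CPM with IL-4/IL-13 and 183, 186, 204, and 180.3 CPM with tunicamycin (log2 fold change 6.93, SE 0.20, edgeR adjusted *P* = 3.47e-20). The other 4 groups held from 0.0236 CPM (oligomycin set A) to 1.47 CPM (naive macrophages). *Herpud1*, a scaffold of the ERAD complex and the member with the highest level per length, went from 70.8, 72.1, 70.1, and 67.9 CPM to 1148, 1196, 1154, and 1147 CPM (log2 fold change 4.05, SE 0.078, edgeR adjusted *P* = 1.23e-23). Its tunicamycin libraries lay above all others, and the means of Sal003 (34.1 ± 3.18 CPM) and both oligomycin sets (51.7 ± 3.75 and 47.5 ± 6.02 CPM) were below that of IL-4/IL-13 alone. *Derl1* (2.68) had the next largest rise.

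Of 52 genes of the translocon and of vesicle transport between ER and Golgi, 28 were higher and none lower (50 and 1 by adjusted *P* alone, median 1.34), and 16 were higher than in each other group. The largest rises were those of the cargo receptor subunit *Mcfd2* (from 88.0 ± 4.98 to 735 ± 12.7 CPM, log2 fold change 3.06), the COPII coat gene *Sec24d* (2.66), and the signal recognition receptor subunit *Srprb* (2.24), and *Ssr3* had the highest level per length (2.08). The paralog *Sec24b* was lower by the test alone (from 142 ± 6.52 to 90.8 ± 3.57 CPM, −0.65).

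Transcripts known as substrates of IRE1-dependent decay were lower. Of 10 members 8 were tested, 6 were at least 2.5-fold lower and none higher, with a median of −1.61. *Itgb2*, the β2 integrin chain of leukocytes, stood at 1862, 1928, 2272, and 1880.0 CPM with IL-4/IL-13 and 133, 145, 149, and 142 CPM with tunicamycin (log2 fold change −3.80, SE 0.10, edgeR adjusted *P* = 7.18e-21). The other groups held 768 CPM (naive) to 1660.3 CPM (set B), so tunicamycin was lowest. *Col6a1* (from 7.003 ± 3.52 to 0.716 ± 0.410 CPM, −3.28) and the MHC class I assembly factor *Tapbp* (from 664 ± 47.6 to 191 ± 9.90 CPM, −1.80) followed, the latter also lower than in each other group, with overlap of other genes on both strands. *Pmp22* was higher by the test alone (0.43). Decay and transcription cannot be told apart in these counts. Fibroblast and stromal markers had a median of −1.76 (5 tested), and their part in these falls was not tested.

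Promoter windows of RefSeq (250 bases before to 50 after a start, GRCm38.p6 table) were searched on both strands for 4 motifs. They were the ER stress element ERSE (CCAAT, 9 bases of any kind, CCACG), ERSE-II (ATTGG, 1 base of any kind, CCACG), the UPRE core TGACGTGG, and the CARE core TTGCATCA, with CCACG alone as the loose form that ERSE and ERSE-II contain. Of 27 ER chaperone genes with a window, 6 held ERSE (22.2%: *Creld2*, *Dnajc3*, *Ero1b*, *Hsp90b1*, *Hspa5*, *Pdia6*), 1 held ERSE-II (*Dnajb11*), 2 held the UPRE core (*Txndc11*, *Txndc5*), and 1 held the CARE core (*Cnpy2*). Of 17 ERAD genes, 2 held ERSE (11.8%: *Derl3*, *Syvn1*), 1 held ERSE-II and the CARE core (*Herpud1*), and 2 held the UPRE core (*Ube2j1*, *Vcp*). The CARE core was found in 4 of 16 ISR effectors (25%: *Chac1*, *Fgf21*, *Nupr1*, *Vldlr*) and 2 of 14 genes of serine, folate, asparagine, and proline metabolism (14.3%: *Got1*, *Pycr1*), and in none of 3 tRNA synthetase genes with a window. Among 27025 genes of the table, 37 held ERSE (0.137%), 12 ERSE-II (0.0444%), 193 the UPRE core (0.714%), 279 the CARE core (1.03%), and 9589 CCACG (35.5%), the last of which was found in 92.6% of the chaperone genes, 70.6% of the ERAD genes, 68.8% of the ISR effectors, 78.6% of the serine to proline list, and 2 of the 3 tRNA synthetase genes. The 27025 genes are all those of the promoter table, not only genes tested here, and shares among the tested genes were not counted. Of 9 of the 12 genes with the largest rises, 1 (*Avil*) held the CARE core, and 3 held CCACG.

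Stretches of these windows are printed because the genes that carry them were among those with large rises. Log2 fold changes were 6.93 for *Derl3*, 4.05 for *Herpud1*, 3.53 for *Hspa5*, 3.29 for *Creld2*, 2.65 for *Dnajc3*, 2.38 for *Hsp90b1*, and 2.32 for *Pdia6*. They were 6.95 for *Chac1*, 5.31 for *Pycr1* (6.02 without IL-4/IL-13 replicate 1), and 4.89 for *Nupr1*, whose printed motif is the CARE core. Sequences read 5′ to 3′ on the strand of the gene, and capitals mark ERSE (or its reverse complement, CGTGG, 9 bases, ATTGG), in *Herpud1* ERSE-II and the CARE core, and in the last 3 genes the CARE core (or TGATGCAA).
Derl3: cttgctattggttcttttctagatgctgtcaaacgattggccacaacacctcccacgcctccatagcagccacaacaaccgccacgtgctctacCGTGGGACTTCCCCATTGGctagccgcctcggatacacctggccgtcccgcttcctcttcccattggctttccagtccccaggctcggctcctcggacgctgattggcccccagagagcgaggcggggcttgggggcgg
Herpud1: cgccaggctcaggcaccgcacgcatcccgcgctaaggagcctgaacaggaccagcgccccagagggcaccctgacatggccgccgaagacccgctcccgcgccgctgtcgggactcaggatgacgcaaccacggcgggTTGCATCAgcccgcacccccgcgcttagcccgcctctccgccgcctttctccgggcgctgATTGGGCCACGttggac
Hspa5: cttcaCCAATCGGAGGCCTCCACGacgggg
Creld2: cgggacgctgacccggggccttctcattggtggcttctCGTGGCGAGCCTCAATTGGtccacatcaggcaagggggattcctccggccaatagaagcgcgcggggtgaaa
Dnajc3: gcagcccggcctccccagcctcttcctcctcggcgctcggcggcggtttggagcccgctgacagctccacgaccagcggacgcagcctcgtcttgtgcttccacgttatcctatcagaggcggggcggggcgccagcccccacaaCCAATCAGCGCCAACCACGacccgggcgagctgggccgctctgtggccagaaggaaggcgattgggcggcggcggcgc
Hsp90b1 distal: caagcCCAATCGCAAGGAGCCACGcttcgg
Hsp90b1 proximal: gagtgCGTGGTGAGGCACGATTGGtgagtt
Pdia6: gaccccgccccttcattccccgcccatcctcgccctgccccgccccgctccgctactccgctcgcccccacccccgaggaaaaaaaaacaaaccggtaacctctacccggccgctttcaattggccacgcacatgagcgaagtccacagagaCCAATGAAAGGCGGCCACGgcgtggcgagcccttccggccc
Chac1: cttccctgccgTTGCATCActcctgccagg
Pycr1: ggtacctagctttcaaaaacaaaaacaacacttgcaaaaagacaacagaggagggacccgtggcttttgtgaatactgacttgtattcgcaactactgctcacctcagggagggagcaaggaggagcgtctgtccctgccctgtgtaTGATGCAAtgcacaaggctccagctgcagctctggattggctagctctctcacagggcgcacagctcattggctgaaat
Nupr1: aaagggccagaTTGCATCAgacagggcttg
By exact match to GRCm39, the stretches lie at chr10:75728982-75729214, plus strand (*Derl3*), chr8:95112807-95113021, plus strand (*Herpud1*), chr2:34662032-34662061, plus strand (*Hspa5*), chr15:88703685-88703794, plus strand (*Creld2*), chr14:119175094-119175316, plus strand (*Dnajc3*), chr10:86541496-86541525, minus strand and chr10:86541391-86541420, minus strand (*Hsp90b1*), and chr12:17316340-17316532, plus strand (*Pdia6*). Those with the CARE core lie at chr2:119181519-119181548, plus strand (*Chac1*), chr11:120534599-120534824, minus strand (*Pycr1*), and chr7:126224734-126224763, minus strand (*Nupr1*). The 30-base stretches of *Hspa5*, *Hsp90b1*, *Chac1*, and *Nupr1* lie in an annotated exon of a protein-coding gene, and the others lie outside such exons. A match is a description of the letters, not of binding.

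**Figure D2:**
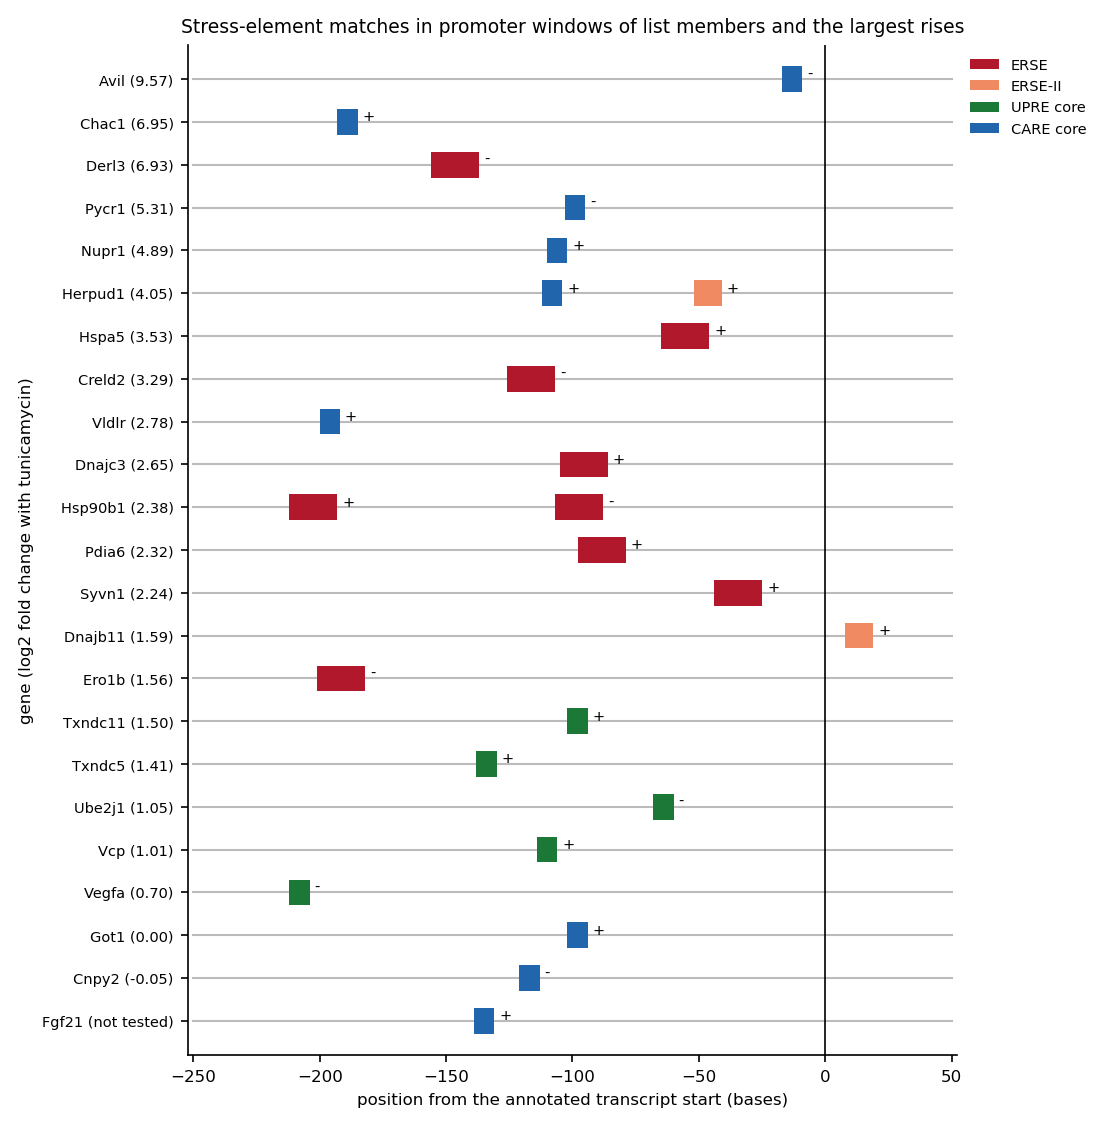
Positions of matches to ERSE, ERSE-II, the UPRE core, and the CARE core in RefSeq promoter windows from 250 bases before to 50 after the start, by strand, for genes of 5 lists and of the 12 largest rises that hold a match. Genes are ordered by log2 fold change with tunicamycin, from *Avil* and *Chac1* at the top to *Cnpy2*, with *Fgf21*, which was not tested, last. ERSE matches were in *Derl3*, *Hspa5*, *Creld2*, *Dnajc3*, *Hsp90b1*, *Pdia6*, *Syvn1*, and *Ero1b*.

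The ISR starts from phosphorylated eIF2α. Of 17 genes of eIF2α kinases and phosphatases and of eIF2B, 3 were higher and none lower (10 and 7 by adjusted *P* alone, median 0.25). *Ppp1r15a*, which encodes GADD34, the stress-induced eIF2α phosphatase subunit, stood at 28.96, 27.1, 26.2, and 31.7 CPM with IL-4/IL-13 and 282, 263, 273, and 259 CPM with tunicamycin (log2 fold change 3.24, SE 0.090, edgeR adjusted *P* = 1.41e-20). The groups did not overlap, and oligomycin set A was at 184 ± 7.21 CPM. The other 2 were the eIF2B subunit *Eif2b3* (1.93) and the eIF2 subunit *Eif2s2* (1.48), and the phosphatase *Ppp1ca* had the highest level per length of the list.

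Stress transcription factors of the bZIP class split, with 8 of 24 higher and 8 lower (median −0.66). *Atf4* rose from 136 ± 8.76 to 1094 ± 19.5 CPM (log2 fold change 3.01, SE 0.078, edgeR adjusted *P* = 3.22e-21). After *Ddit3* (log2 fold change 4.21), whose exons overlap a gene on the other strand over 82.4%, the largest rises were those of *Batf* (from 6.13 ± 1.04 to 69.2 ± 9.40 CPM, log2 fold change 3.50) and *Cebpd* (from 19.4 ± 1.96 to 209.5 ± 5.66 CPM, 3.44), both higher than in each other group. *Nfe2l1*, a factor that is itself N-glycosylated in the ER and controls proteasome genes, rose from 231 ± 12.1 to 1736 ± 24.7 CPM (2.91; chosen after its values were seen). The largest falls were those of *Batf3* (from 94.3 ± 6.64 to 5.79 ± 0.347 CPM, −4.02) and *Fos* (from 115 ± 11.99 to 9.10 ± 1.18 CPM, −3.65). *Atf3*, often named with the ISR, was lower, from 866 ± 14.0 to 311 ± 19.4 CPM (log2 fold change −1.48, edgeR adjusted *P* = 2.53e-19), near the level of naive macrophages (299.8 ± 17.3 CPM). It was also chosen after its values were seen.

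Of 16 tested ISR effectors (19 in the list), 11 were higher and none lower (median 2.42), and 3 were higher than in each other group. *Chac1*, which degrades glutathione, stood at 0.279, 0.504, 0.158, and 0.425 CPM with IL-4/IL-13 and 44.2, 42.2, 42.7, and 43.2 CPM with tunicamycin (log2 fold change 6.95, SE 0.15, edgeR adjusted *P* = 6.47e-23). Oligomycin sets A and B held intermediate levels of 24.6 ± 0.907 and 18.4 ± 0.885 CPM, and Sal003 held 2.17 ± 0.557 CPM. *Gdf15*, a secreted stress cytokine (from 2.61 ± 0.530 to 138 ± 7.78 CPM, log2 fold change 5.74), *Nupr1*, a stress-induced chromatin protein (from 7.14 ± 0.901 to 212 ± 5.21 CPM, 4.89), and the mitochondrial pyrimidine nucleotide carrier *Slc25a33* (from 1.84 ± 0.305 to 35.8 ± 1.13 CPM, 4.29) were the 3 that were higher than in each other group.

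Genes of serine, folate, asparagine, and proline synthesis were higher in 8 of 17 cases and lower in none (median 1.28). *Asns*, asparagine synthetase, stood at 7.46, 7.26, 8.53, and 9.35 CPM with IL-4/IL-13 and 180.0, 188, 186, and 187 CPM with tunicamycin (log2 fold change 4.51, SE 0.10, edgeR adjusted *P* = 2.19e-22). Its groups did not overlap, and oligomycin sets A and B held 161 ± 1.57 and 146 ± 5.85 CPM. *Aldh1l2* (from 0.450 ± 0.297 to 31.6 ± 3.25 CPM, 6.07) and *Pycr1* (from 0.303 ± 0.245 to 12.2 ± 0.448 CPM, 5.31, or 6.02 without IL-4/IL-13 replicate 1), mitochondrial enzymes of folate and proline metabolism, had the largest rises and were the 2 members higher than in each other group. *Shmt2*, mitochondrial serine hydroxymethyltransferase, rose less (from 43.1 ± 2.26 to 142 ± 2.91 CPM, 1.72), and *Got1*, the member with the highest level per length, stood at 179 ± 2.82 and 179 ± 3.49 CPM (0.00). *Psat1* stood at 38.7 ± 1.72 and 42.2 ± 1.84 CPM (log2 fold change 0.12, edgeR adjusted *P* = 0.336). It was also at 7.59 ± 1.69 CPM in naive macrophages.

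Amino acid transporters moved both ways, with 10 of 20 tested members higher and 4 lower (21 in the list, median 1.10). *Slc7a5*, the light chain of the leucine exchanger, stood at 5.85, 5.90, 7.11, and 5.89 CPM and then 222, 228, 229, and 210.5 CPM (log2 fold change 5.16, SE 0.090, edgeR adjusted *P* = 1.82e-24). Its partner *Slc3a2*, the member with the highest level per length, rose from 202 ± 10.6 to 2916 ± 119.9 CPM (3.85), and these were the 2 members higher than in each other group. *Slc1a4* (5.04) and the cationic amino acid transporter *Slc7a1* (from 15.5 ± 2.30 to 265 ± 14.3 CPM, 4.09) rose as well. *Slc7a2*, the cationic transporter induced by IL-4/IL-13, stood at 337, 351, 371, and 325 CPM with IL-4/IL-13 and 2.98, 3.09, 3.46, and 2.85 CPM with tunicamycin (log2 fold change −6.80, SE 0.10, edgeR adjusted *P* = 2.50e-25). With tunicamycin it was below naive macrophages (6.39 ± 1.29 CPM), whereas Sal003 and both oligomycin sets held 326 to 519.9 CPM. *Slc1a5* (from 117 ± 1.66 to 41.9 ± 1.29 CPM, −1.48) and *Slc1a3*, at a ratio of IL-4/IL-13 to tunicamycin counts of 7.43 (95% counting interval, 2.90 to 24.3), were lower too.

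All 20 cytosolic tRNA synthetases passed the test in the higher direction and 12 reached 2.5-fold (median 1.60). *Aars1* stood at 75.6, 72.7, 76.4, and 73.0 CPM with IL-4/IL-13 and 575, 616, 615, and 592 CPM with tunicamycin (log2 fold change 3.01, SE 0.065, edgeR adjusted *P* = 1.09e-22), with 12.1% of its exon bases shared with a gene on the same strand. The groups did not overlap, and oligomycin set A came near the tunicamycin level (505 ± 2.95 CPM). *Sars1* (2.40) and *Eprs1* (2.40) followed, and *Nars1* had the highest level per length (from 190.3 ± 4.91 to 786 ± 19.3 CPM, 2.05). No member was at least 2.5-fold higher than in each other group.

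Genes of the IL-4/IL-13 response were lower with tunicamycin. Of 11 markers and factors of this response taken from the study, not all that it names, which is no independent evidence of their direction, 10 were at least 2.5-fold lower and none higher, and 5 were lower than in each other group. Their median was −7.43, or −6.88 with members at 3 counts or fewer per library set to their bound. *Egr2*, a factor that shapes the alternatively activated state, stood at 411, 416, 391, and 422 CPM with IL-4/IL-13 and 4.16, 2.86, 4.08, and 2.90 CPM with tunicamycin (log2 fold change −6.88, SE 0.092, edgeR adjusted *P* = 3.34e-26). With tunicamycin it was below naive macrophages (13.7 ± 1.73 CPM). The chitinase-like *Chil3* (from 3559 ± 375 to 1.73 ± 0.741 CPM, −11.02; 22.7% of its 50-base windows recur in other genes, mainly *Chil4*), the lectin *Mgl2* (−7.43), *Ccl22* (−4.74), the coactivator *Ppargc1b* (−4.65), and the mannose receptor *Mrc1* (from 634 ± 74.0 to 78.2 ± 5.19 CPM, −3.02) were lower as well. *Ccl17* had 0 counts in all 4 tunicamycin libraries against 2.09 ± 0.304 CPM with IL-4/IL-13, at least 13.5-fold lower with a floor of 3 counts per library. *Klf4*, the remaining marker, passed the test but stayed under 2.5-fold (from 189 ± 7.27 to 154 ± 14.98 CPM, −0.29).

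Of 17 tested genes of IL-4 and IL-13 receptor signaling (18 in the list), 2 were higher and 4 lower, against 8.56% and 14.0% of all genes (median −0.22). *Il4ra* was higher by the test alone (from 91.9 ± 6.56 to 162 ± 9.31 CPM, 0.81), *Stat6* lower by the test alone (from 306 ± 8.03 to 216 ± 5.18 CPM, −0.50), and *Jak1* stood at 296 ± 13.1 and 289 ± 8.98 CPM (log2 fold change −0.03, edgeR adjusted *P* = 0.602). These 3 were chosen after their values were seen. *Cish*, a cytokine-induced inhibitor of JAK-STAT signaling, stood at 93.0, 93.5, 83.0, and 87.3 CPM with IL-4/IL-13 and 1.28, 2.67, 1.65, and 1.83 CPM with tunicamycin (log2 fold change −5.57, SE 0.16, edgeR adjusted *P* = 1.87e-20), the level of naive macrophages (1.83 ± 0.382 CPM). *Socs2* (from 64.01 ± 2.74 to 0.889 ± 0.445 CPM, −6.14), *Socs1* (from 63.8 ± 6.98 to 4.16 ± 0.409 CPM, −3.93), and *Irs2* (from 79.6 ± 5.41 to 7.99 ± 0.834 CPM, −3.31) were lower too. *Socs3*, the inhibitor induced by IL-6 family cytokines, ran the other way, at 4.34, 2.92, 3.16, and 4.43 CPM with IL-4/IL-13 and 41.7, 39.7, 42.0, and 40.1 CPM with tunicamycin (log2 fold change 3.47, SE 0.13, edgeR adjusted *P* = 5.60e-18). Its tunicamycin libraries lay above all other groups, of which naive macrophages were the highest (14.4 ± 1.29 CPM). The receptor chain *Il13ra1* was also higher (from 5.87 ± 0.437 to 45.3 ± 3.41 CPM, 2.94), and the phosphatase *Ptpn6* had the highest level per length.

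Of 25 tested genes among 30 others known from type 2 macrophages, 17 were lower, 3 higher, and 11 lower than in each other group (median −4.67). The multinucleation genes *Dcstamp* and *Ocstamp* held 145 ± 11.8 and 115 ± 10.7 CPM with IL-4/IL-13, and the ratios of IL-4/IL-13 to tunicamycin counts were 11299 (95% counting interval, 2028 to 446330.0) and 4471 (95% counting interval, 1237 to 36925). For the ribonuclease *Ear2*, which shares sequence with its paralogs, that ratio was 7921 (95% counting interval, 3093 to 29072). The lectin *Clec7a* (Dectin-1), with the highest level per length, was among those lower (from 1073 ± 56.6 to 27.8 ± 3.48 CPM, −5.27). The 3 higher genes were *Ch25h* (from 1.99 ± 0.366 to 18.3 ± 3.77 CPM, 3.20), which had 80.0 ± 14.9 CPM with oligomycin set A, and the chemokines *Ccl2* (1.84) and *Ccl7* (1.72).

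**Figure D3:**
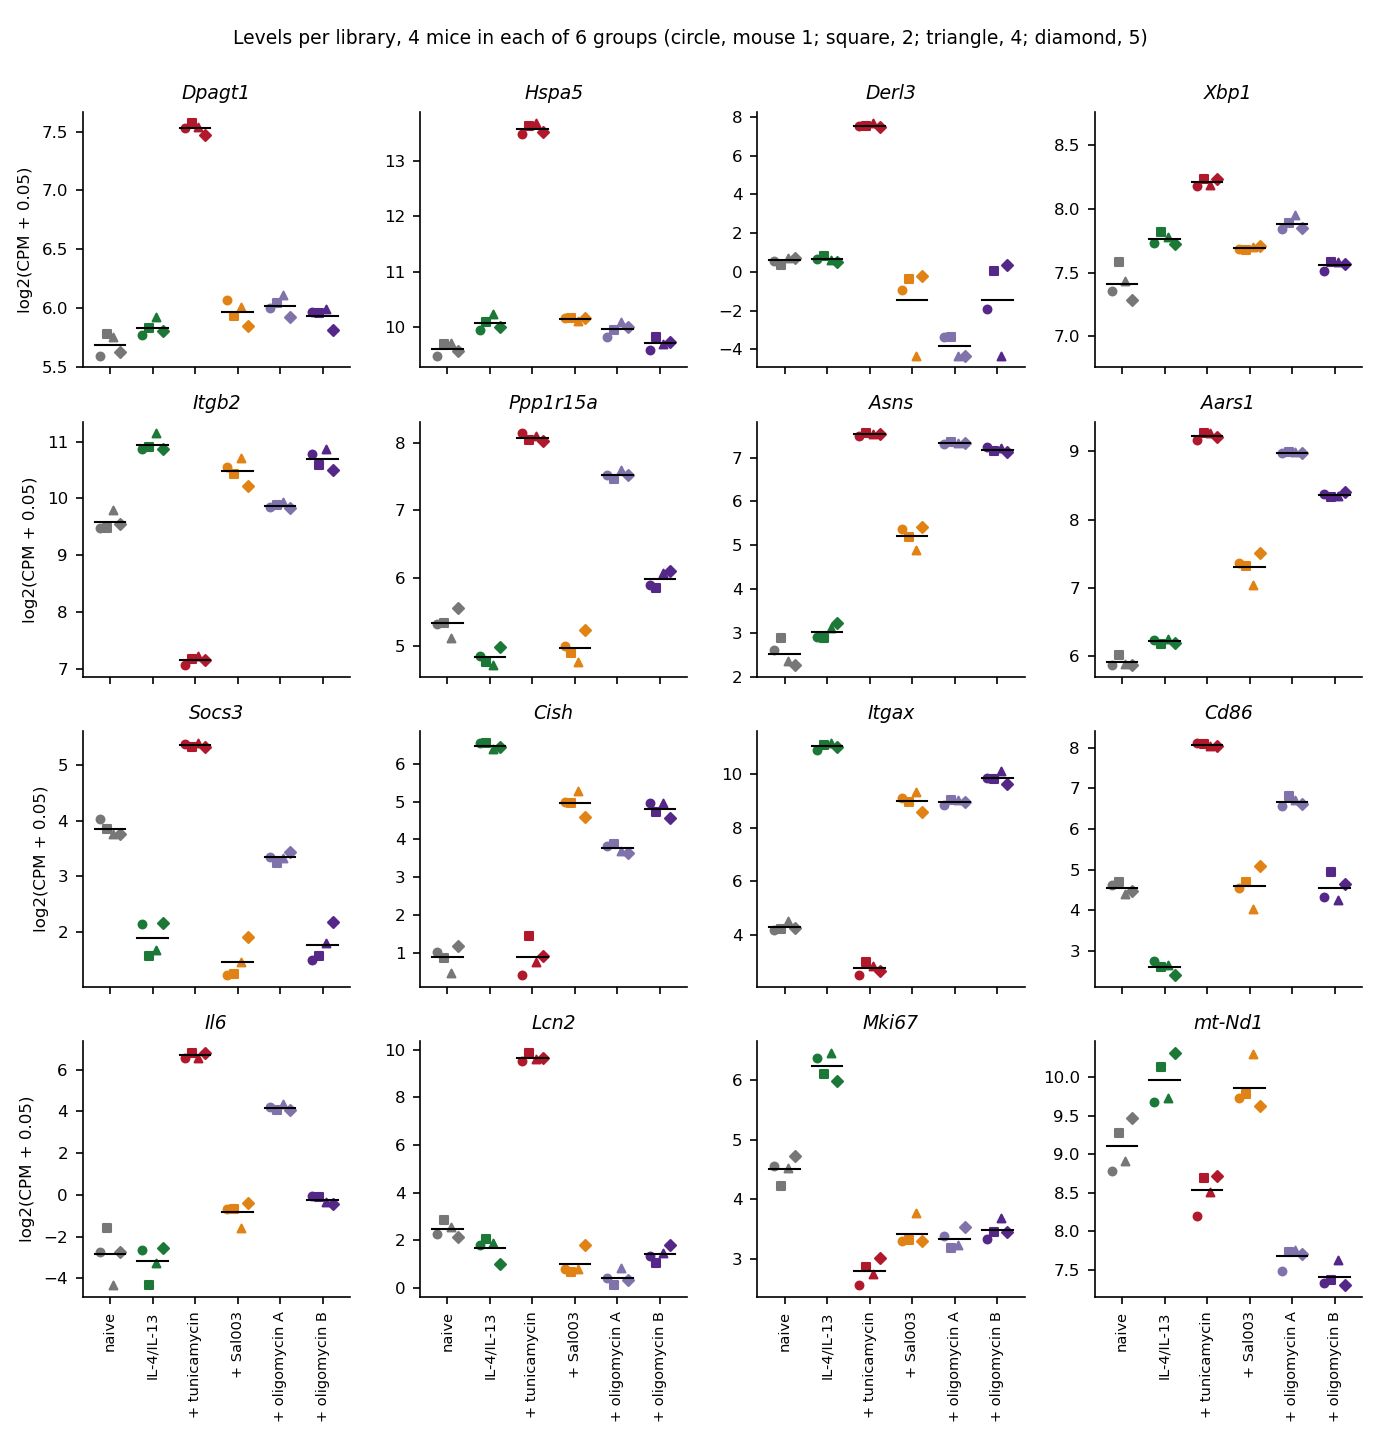
Level of 16 genes in every library of 6 groups, as log2(CPM + 0.05), with 1 symbol per mouse (circle, mouse 1; square, mouse 2; triangle, mouse 4; diamond, mouse 5) and a bar at the mean of the 4 log values. *Dpagt1*, *Hspa5*, *Derl3*, *Xbp1*, *Ppp1r15a*, *Asns*, *Aars1*, *Socs3*, *Cd86*, *Il6*, and *Lcn2* were higher and *Itgb2*, *Cish*, *Itgax*, *Mki67*, and *mt-Nd1* lower in all 4 tunicamycin libraries than in all 4 IL-4/IL-13 libraries.

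Macrophage lineage genes moved both ways, with 5 of 25 higher and 12 lower (median −0.78). *Itgax*, which encodes the integrin CD11c, stood at 1923, 2185, 2289, and 2040.2 CPM with IL-4/IL-13 and 5.55, 7.90, 7.03, and 6.27 CPM with tunicamycin (log2 fold change −8.30, SE 0.17, edgeR adjusted *P* = 3.40e-23). Naive macrophages held 19.5 ± 2.14 CPM and the other inhibitor groups 499 to 928 CPM, so tunicamycin was lowest. *Adgre1*, which encodes F4/80, rose from 869, 954, 1113, and 974 CPM to 6053, 7296, 6898, and 6466 CPM (log2 fold change 2.77, SE 0.075, edgeR adjusted *P* = 7.67e-21), above naive macrophages (3487 ± 281 CPM). *Marco*, a scavenger receptor, stood at 0.334, 0.454, 0.263, and 0.303 CPM and then 28.2, 96.7, 22.8, and 36.6 CPM (log2 fold change 7.06, SE 0.74, edgeR adjusted *P* = 4.02e-09), or a log2 fold change of 6.40 without tunicamycin replicate 2. Mouse 2 was highest in both groups, and also among naive macrophages (8.20, 35.5, 8.58, and 11.2 CPM). *Csf1r*, the M-CSF receptor, fell from 3732 ± 358 to 821 ± 48.5 CPM (−2.18). *Trem2* (from 836 ± 25.7 to 101 ± 16.0 CPM, −3.05) was among the members with the largest falls, *Cd14* rose from 58.3 ± 4.96 to 389 ± 19.5 CPM (2.74), and *Lyz2*, with the highest level per length, was higher by the test alone (0.53).

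MHC class II presentation was lower while its costimulator *Cd86* was higher. Of 10 members 7 were lower, 5 of them lower than in each other group, and 1 was higher (median −3.84). *H2-Aa* stood at 1189.8, 1304, 1227, and 1224 CPM with IL-4/IL-13 and 71.3, 64.7, 67.2, and 69.6 CPM with tunicamycin (log2 fold change −4.18, SE 0.098, edgeR adjusted *P* = 5.34e-22), with no overlap. The peptide-loading genes *H2-DMa* (−5.07) and *H2-DMb1* (−4.46; shared in part with *H2-DMb2*), the transactivator *Ciita* (from 238 ± 10.1 to 15.3 ± 1.76 CPM, −3.96; chosen after its values were seen), and *Cd74*, with the highest level per length (from 4815 ± 196 to 738 ± 26.4 CPM, −2.71), followed it. *Cd86* stood at 6.63, 6.00, 6.21, and 5.22 CPM and then 277, 273, 264, and 263 CPM (log2 fold change 5.48, SE 0.17, edgeR adjusted *P* = 8.91e-20). It was higher than in each other group, of which oligomycin set A had the most (102 ± 7.36 CPM), and *Cd80* and *Cd40* did not pass.

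Inflammatory cytokines and mediators were higher in 16 of 22 tested cases (26 in the list) and lower in none, and 7 were higher than in each other group. The median was 2.13, or 1.99 with members at the floor set to their bound. Against naive macrophages, 8 members were at least 2.5-fold higher with tunicamycin and 6 lower, with a median of 0.27. The medians from Sal003 and oligomycin sets A and B were 1.9, 2.2, and 1.7. *Il6* (chr5:30218112-30224979, plus strand) had 0.111, 0, 0.0527, and 0.121 CPM, 5 counts in all, with IL-4/IL-13 and 94.6, 112, 94.7, and 109.95 CPM with tunicamycin, a ratio of 1511 (95% counting interval, 647 to 4656) by counts. Naive macrophages held 0.1203 ± 0.119 CPM and oligomycin set A 18.0 ± 1.78 CPM. Inducible nitric oxide synthase, *Nos2*, stayed low (from 0.10995 ± 0.0757 to 4.37 ± 0.231 CPM; ratio 39.9 (95% counting interval, 20.0 to 93.3)), and *Cxcl2* (from 3.39 ± 2.49 to 114 ± 10.2 CPM, 5.11, or 5.73 without IL-4/IL-13 replicate 5), *Ccl3*, with the highest level per length (from 8.75 ± 0.797 to 294 ± 13.3 CPM, 5.06; 35.6% of its exon bases overlap a gene on the other strand), and *Ptgs2* (4.52; chosen after its values were seen) rose.

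Interferon-stimulated genes showed no common direction, with 5 of 27 higher and 3 lower, against 8.56% and 14.0% of all genes. Their median of 0.03 became negative with upper-quartile scaling, with a stricter count filter, or without tunicamycin replicate 5. *Isg20* (from 1.63 ± 0.295 to 31.6 ± 1.38 CPM, 4.29), *Isg15* (2.25), and *Ifit1* (2.14) rose, while *Gbp3* (−2.32), *Oas3* (from 76.4 ± 8.63 to 16.2 ± 1.19 CPM, −2.23), and *Gbp2* (−1.79) fell and were lower than in each other group. *Bst2* had the highest level per length (0.85). Among 23 tested genes of the BCL-2 family and of stress-related death (25 in the list), 3 were higher and 4 lower, against 8.56% and 14.0% of all genes (median −0.19). *Bcl2a1d* (from 2.09 ± 0.316 to 77.8 ± 4.36 CPM, 5.21) and *Bcl2a1b* (3.50), antiapoptotic near-identical copies whose counts cannot be assigned with certainty, and the inflammatory caspase *Casp4* (2.60) were higher. *Bcl2l11*, which encodes the proapoptotic BIM (−2.20), and *Bok* (ratio of counts 9.90 (95% counting interval, 3.06 to 50.9)) were among those lower. *Mcl1*, with the highest level per length, was lower by the test alone (from 1001 ± 7.80 to 454 ± 20.0 CPM, −1.14).

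Proliferation genes were lower with tunicamycin. Of 25 genes of DNA replication 19 were lower and none higher (median −2.02), and of 21 genes of mitosis all were lower (median −3.50). *Mki67*, which encodes the Ki-67 proliferation antigen, stood at 82.7, 68.8, 88.1, and 63.7 CPM with IL-4/IL-13 and 5.85, 7.24, 6.64, and 8.05 CPM with tunicamycin (log2 fold change −3.45, SE 0.13, edgeR adjusted *P* = 7.18e-18). Naive macrophages held 22.9 ± 3.31 CPM, and Sal003 and both oligomycin sets held 10.1 to 11.2 CPM, so the means of the 4 inhibitor groups were all below that of naive macrophages. The ribonucleotide reductase gene *Rrm2* (from 47.0 ± 5.84 to 1.11 ± 0.143 CPM, −5.40), *Uhrf1* (−5.02), *Pole* (−3.96), and the clamp *Pcna*, with the highest level per length (from 375 ± 10.7 to 92.7 ± 2.86 CPM, −2.02), were lower. So were *Nusap1* (−5.17), *Ccna2* (−5.03), *Kif11* (−4.67), the 1 mitosis gene that was also lower than in each other group, and *Top2a* (−2.69). *Tyms* ran the other way by the test alone (from 10.98 ± 1.05 to 14.9 ± 1.41 CPM, 0.44).

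Of 15 tested cytosolic heat shock proteins (17 in the list), 2 were lower, against 14.0% of all genes, the near-identical pair *Hspa1b* (−3.03) and *Hspa1a* (−2.85), and none was higher (median −0.27). *Hsp90ab1* had the highest level per length (from 1202 ± 29.3 to 714 ± 26.2 CPM, −0.75). Of 16 NRF2 targets 4 were higher and none lower (median 0.31). They were the autophagy receptor *Sqstm1* (from 498 ± 13.6 to 3784 ± 129 CPM, 2.93), *Gsta3* (2.29), *Fth1*, with the highest level per length (1.41), and the cystine transporter *Slc7a11* (1.34). Of 25 autophagy genes 2 were higher and 1 lower, against 8.56% and 14.0% of all genes. They were *Sqstm1* and *Optn* (2.21) and, lower, the lysosomal regulator *Tfeb* (from 132 ± 3.73 to 30.5 ± 2.02 CPM, −2.12). The median of the list was 0.04, and it was negative with upper-quartile scaling and with the stricter filter.

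Among all genes tested, 14.0% were at least 2.5-fold lower and 8.56% higher. Of 23 tested cholesterol genes (24 in the list), 5 were lower, among them *Idi1* (from 2.86 ± 0.209 to 0.466 ± 0.137 CPM, −2.61), and *Sc5d* was higher (1.79; median −0.33). *Hmgcs1*, with the highest level per length, stood at 85.9 ± 5.03 and 86.2 ± 3.40 CPM (0.00). Of 22 glycolysis genes, *Slc2a3* (1.49) and *Pfkfb3* (1.44) were higher, *Aldoc* was lower (−1.66), and *Aldoa* had the highest level per length (median −0.15). Of 30 lysosomal hydrolases and membrane proteins, which are themselves glycoproteins, 7 were lower and none higher (19 lower and 11 higher by adjusted *P* alone, median −0.57). They included *Man2b1* (from 1209 ± 67.3 to 228 ± 14.2 CPM, −2.41), *Ctss* (−2.32), *Ctsh* (−2.11), and *Psap*, with the highest level per length (from 22798 ± 1827 to 8522 ± 917 CPM, −1.42). *Ctsc*, 1 of those 11, was higher by the test alone (from 188 ± 21.3 to 432 ± 22.8 CPM).

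Most transcripts of the respiratory chain that were tested were lower by adjusted *P*, few of them past 2.5-fold. Of 13 mtDNA-encoded subunits 7 were tested, all 7 were lower by adjusted *P*, and 2 reached 2.5-fold (median −1.09), 1 of 7 without IL-4/IL-13 replicate 5. The other 6 (*mt-Nd3*, *mt-Nd4l*, *mt-Co2*, *mt-Co3*, *mt-Atp6*, and *mt-Atp8*) fell below the count filter. *mt-Nd1*, a complex I subunit, stood at 819, 1123, 853, and 1276 CPM with IL-4/IL-13 and 294, 414, 366, and 420.3 CPM with tunicamycin (log2 fold change −1.45, SE 0.16, edgeR adjusted *P* = 1.11e-08). The groups did not overlap, with mice 2 and 5 highest in both. The others were *mt-Nd2* (−1.50), *mt-Cytb* (−1.24), *mt-Nd4* (−1.09), *mt-Nd5* (−0.82), *mt-Nd6* (−0.62), and *mt-Co1*, with the highest level per length of the 7 tested (−0.59). Of the 50-base windows of *mt-Nd4* and *mt-Co1*, 62.2% and 51.1% recur in other annotated genes. Reads counted on mitochondrial genes made up 0.689% to 1.08% of each IL-4/IL-13 library and 0.392% to 0.554% of each tunicamycin library. These shares cover only the reads that the count table assigns to those genes. Whether shared sequence lowered them was not tested. Of 38 nuclear-encoded respiratory chain genes, 34 were lower by adjusted *P* and 1, *Uqcrq* (0.73), was higher, but only *Sdhd* reached 2.5-fold (from 206 ± 2.30 to 63.7 ± 1.93 CPM, −1.69; median −0.76). Of 13 mitochondrial chaperones and proteases, 3 were higher and none lower, *Hspa9* (from 230.3 ± 7.19 to 1063 ± 13.0 CPM, 2.21), *Lonp1* (1.83), and *Dnaja3* (1.45; median 0.52). Oligomycin set A held these 3 at 1023, 221, and 164 CPM, near the tunicamycin levels of 1063, 222, and 161 CPM.

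Ribosomal, ribosome biogenesis, and proteasome lists had no member at least 2.5-fold lower, against 14.0% of all genes, and 8.56% of all genes were higher. By adjusted *P* alone, 38.7% of all genes were higher and 37.6% lower. Of 41 cytosolic ribosomal proteins 1 was higher, *Rpl24* at 0.216 ± 0.147 and 0.627 ± 0.249 CPM, with most of its exon bases shared with other genes, and none was lower (5 and 15 by adjusted *P* alone, median −0.06), and *Rplp1* had the highest level per length. Ribosome biogenesis genes were higher in 5 of 25 cases and lower in none (22 higher by adjusted *P* alone, median 0.59), led by *Gnl3* (1.56), *Rrp9* (1.46), and *Rrp12* (1.43), with *Ncl* the highest per length (1.04). No proteasome subunit of 28 reached 2.5-fold, and by edgeR's adjusted *P* alone 15 were higher and 2 lower (median 0.15).

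The 12 largest rises over all genes included 8 with a gene name. Among them were *Il6*, the actin-binding *Avil* (ratio of counts 807 (95% counting interval, 391 to 2008)), the inhibitory receptor *Siglece* (from 0.529 ± 0.185 to 282 ± 18.8 CPM, 9.07; 39.3% of exon bases overlap a gene on the other strand), the short-chain fatty acid receptor *Ffar2* (ratio 515 (95% counting interval, 261 to 1194)), and the lysophosphatidic acid receptor *Lpar4* (ratio 563 (95% counting interval, 156 to 4655)). *F5*, coagulation factor V, stood at 0.223, 0.202, 0.632, and 0.425 CPM with IL-4/IL-13 and 124, 150.2, 171, and 141 CPM with tunicamycin (log2 fold change 8.61, SE 0.20, edgeR adjusted *P* = 2.87e-22). It was also high with oligomycin set A (85.7 ± 15.3 CPM) but not with set B (4.00 ± 0.441 CPM), as were *Sh2d6* (8.37; 43.8 against 6.32 CPM) and, less so, the cholesterol acyltransferase *Soat2* (8.34; 51.9 against 20.8 CPM). Also among the 12 was the noncoding *1700003M07Rik*, at 0 counts in all 4 IL-4/IL-13 libraries and 47.1 ± 7.03 CPM with tunicamycin, at least 286-fold higher. The other 3 were the predicted genes *Gm19410*, *Gm19026*, and *Gm867*.

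Of the 12 largest falls, *Dcstamp*, *Ocstamp*, *Ear2*, and *Chil3* belong to the lists above, as does *Retnla*. The cytokine receptor *Il31ra* and the glycosyltransferase *Galnt9* had 0 counts in all 4 tunicamycin libraries, at least 247-fold and 138-fold lower than the 38.2 ± 2.49 and 21.4 ± 0.314 CPM of IL-4/IL-13–treated macrophages, and the predicted gene *Gm49087* was at least 179-fold lower. For the corepressor *Hr* the ratio of counts was 6992 (95% counting interval, 1935 to 57744), for the sodium channel *Scn3a* it was 2928 (95% counting interval, 525 to 115680.0), and the ribonuclease *Rnase2a* fell from 547 ± 48.5 to 0.161 ± 0.127 CPM (−11.73, or −12.33 without tunicamycin replicate 4).

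The 8 genes that stood farthest above all other 5 groups included *Derl3*, *Fkbp11*, and the 2 noncoding or predicted genes *1700003M07Rik* and *Gm19026*. *Lcn2*, a secreted siderophore-binding protein, stood at 3.40, 4.14, 3.63, and 1.94 CPM with IL-4/IL-13 and 732, 933, 773, and 806 CPM with tunicamycin (log2 fold change 7.93, SE 0.17, edgeR adjusted *P* = 7.89e-23). The next highest group was naive macrophages, at 5.54 ± 1.25 CPM. *Bhlha15*, which encodes MIST1, a factor of secretory cells, held 5.18 ± 0.617 CPM (ratio 63.3 (95% counting interval, 28.8 to 174)), and *Ccdc149* (ratio 99.7 (95% counting interval, 42.5 to 308)) and the cadherin-related *Cdhr3* (ratio 166 (95% counting interval, 56.3 to 805)) were as low elsewhere. Farthest below all other groups, with *Dcstamp* and *Galnt9*, were the opioid precursor *Penk* (ratio of IL-4/IL-13 to tunicamycin counts 1688 (95% counting interval, 303 to 66725)), *Slc36a2* (1228 (95% counting interval, 219.9 to 48534)), *Slco2b1* (695 (95% counting interval, 238 to 3375)), *Ksr2* (1860.2 (95% counting interval, 515 to 15366)), *Nes* (729 (95% counting interval, 354 to 1815)), and the granulocyte gene *S100a9* (903 (95% counting interval, 162 to 35709)). Naive macrophages held 22.3 ± 1.89 CPM of *Slco2b1* and 6.44 ± 1.33 CPM of *Penk*, so these transcripts were present without cytokines too.

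Whether reads were counted by strand is unknown, so genes on either strand that overlap a named gene over at least 10% of its exon bases make its count uncertain. Besides those marked above, this holds for *Cebpd*, *Batf3*, *Gdf15*, *Nupr1*, *Slc25a33*, *Aldh1l2*, *Shmt2*, *Slc3a2*, *Cish*, *Socs1*, *Socs3*, *Dcstamp*, *Ch25h*, *Csf1r*, *Lyz2*, *H2-DMa*, and *H2-DMb1*. It also holds for *Isg15*, *Bcl2a1b*, *Pcna*, *Rrm2*, *Ccna2*, *Sqstm1*, *Fth1*, *Hsp90ab1*, *Hsp90b1*, *Hspa1a*, *Hspa9*, *Dnaja3*, *Syvn1*, *Txndc5*, *Vcp*, *Hmgcs1*, *Aldoa*, *Jak1*, *Ppp1ca*, *Penk*, *Col1a2*, and the predicted *Gm867* and *Gm49087*. More than 10% of the 50-base windows of *Ear2*, *Mgl2*, *Idi1*, *Uhrf1*, *Pcna*, *Vcp*, *Rpl24*, *Rplp1*, and *Gm19026* recur in other genes.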

How the data were processed

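The mRNA libraries, 1 per mouse and condition, were grouped by the treatment in their labels, with all 24 columns assigned and 0 left over. The authors used Cutadapt 1.8 for trimming, filters against rRNA and low complexity, STAR 2.7 for alignment (GRCm39), and htseq-count 0.9.1. Their deposited table gives unnormalized counts of reads for 56884 genes. Lines that name no gene took 12.74% to 15.231% of reads and were left out. The authors also deposited TPM from RSEM 1.2.31, not used because its header has 28 names over 25 cells. The strand setting is not given in the sources used here.

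Counts were tested with edgeR 4.0.16 in R 4.3.3, with TMM scaling, filterByExpr by group, a coefficient for each of 6 groups over 24 libraries (median biological coefficient of variation 7.06%), and Benjamini-Hochberg adjustment over 13679 genes. Each SE is the absolute log2 fold change divided by the square root of the F statistic of edgeR. It was not estimated separately, and where a group has few counts it can be smaller than the counting error. Unless an alternative is named, *P* values rest on the spread between mice within the 6 groups, taken over all 24 libraries. These libraries come from the same 4 mice and were treated as independent. The 95% intervals and the floor of 3 counts per library cover counting error only. Bounds divide the mean CPM of a group by the floor. Ratios of counts compare the summed counts of the groups after scaling by their summed library sizes with TMM. Of the 56884 identifiers, 56323 were found in the GENCODE M39 annotation, which gave positions and exon lengths. A count is called uncertain where other genes cover at least 10% of exon bases, and shared sequence is the share of a transcript's 50-base windows that recur in another gene. Members and lists were chosen with earlier results of these data known. Named genes were the 12 largest rises and falls (same direction in 4 of 4 mice, at least 50 counts on average) and, in each list, up to 3 largest rises and falls past 2.5-fold and the member highest per length. All UPR sensors, IL-4/IL-13 genes in the list from the study, and mtDNA subunits, *Dpagt1*, and 8 genes the study names could also be named, as could the 8 genes farthest above and the 8 farthest below every other group. Values of some genes that the rule selects are not given. Lists are described by counts and medians, without a test of the list.

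Equal numbers mark libraries of 1 mouse. After subtraction of group means, the tunicamycin and IL-4/IL-13 libraries of a mouse correlated across genes at r = 0.285, 0.182, 0.367, and 0.407 for mice 1, 2, 4, and 5, and at no more than 0.031 for different mice. The methods state no block, so the mouse was a block in an alternative only. The analysis was also run with DESeq2 1.42.0, with upper-quartile scaling, library totals alone, no count filter, at least 10 counts in every library, only the groups compared, a 2-fold threshold, and leaving out each library in turn.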

Additional observations from a re-analysis of the deposited data

Results flagged for a closer look

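In 32 of 467 groups of 4 libraries, 1 library stood apart, its gap to the nearest other library, as a share of the range, exceeding the 95% critical value of Dixon for 4 samples. Chance gives about 1 in 20 such groups. Of the 32, 22 were IL-4/IL-13 groups and 10 tunicamycin groups, and the library was that of mouse 4 in 18, mouse 5 in 10, mouse 1 in 3, and mouse 2 in 1.

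In the IL-4/IL-13 group the library of mouse 4 was highest for *Ctsc* (219 CPM), *Eif2ak3* (49.1), *Eprs1* (115), *Il13ra1* (6.53), *Itgb2* (2272), *Jak1* (315), *Man2b1* (1309), *Mbtps1* (111), *Slc2a3* (7.58), *Slc7a11* (17.4), *Slc7a5* (7.11), *Uap1* (26.0), and the summed macrophage markers (14998 CPM without TMM scaling, against 13127 to 13370 in the other 3). In the tunicamycin group mouse 4 was highest for *Aldoc* (4.14 CPM), *Avil* (85.1), and *Mrc1* (85.9) and lowest for *Pfkfb3* (93.8) and *Soat2* (59.3).

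With IL-4/IL-13, mouse 5 was highest for *Casp4* (16.6 CPM), *Isg20* (2.06), *Ptpn6* (218), summed T cell markers (1.35 CPM without TMM scaling, against 0.457 to 0.510), and summed dendritic cell markers (11.7). It was lowest for *S100a9* (6.74 CPM), *Tyms* (9.41), and summed granulocyte markers (24.8 CPM without TMM scaling, against 41.8 to 44.8). With tunicamycin it was lowest for *Lonp1* (216 CPM) and *Pdia5* (56.0). Mouse 1 was highest for *Pycr1* with IL-4/IL-13 (0.668 CPM) and lowest for *Pole* (0.565) and *Siglece* (254) with tunicamycin, and mouse 2 was highest for *Herpud1* with tunicamycin (1196). The change of each of these 28 genes with tunicamycin stayed on the same side of the adjusted *P* threshold in every alternative that tested it, and in the same direction except for *Jak1*, which did not pass (log2 fold change between −0.09 and 0.01).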

How the results depend on the processing

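The counts of 1171 higher and 1917 lower genes became 1149 and 1950 with DESeq2, which shared 1147 and 1917 of them, 1099 and 1983 with upper-quartile scaling, 1217 and 1847 with library totals, 1551 and 2520 with no count filter (27890 genes), 1087 and 1717 with only the groups compared, and 1168 and 1935 with the mouse as a paired block (1087 and 1719 with both). Requiring at least 10 counts in every library tested fewer genes (11017) and gave 697 higher and 1041 lower, and 195 higher and 290 lower than in each other group. At 2-fold, 1726 were higher, 2432 lower, and 567 higher and 884 lower than in each other group. Leaving out each library in turn gave 1166 to 1267 higher, 1893 to 1978 lower, 10139 to 10301 past adjusted *P* alone, and 372 to 401 and 595 to 630 against each other group. The median of all genes moved by at most 0.052 from that with TMM under the other scalings. Of 1564 counts of list members, 43 moved by more than 1.5-fold or to or from 0. No named gene that passed the test reversed, and some that did not pass, such as *Jak1*, *Got1*, and *Rtcb*, changed sign near 0. *Col1a2* passed with the block and in 7 other settings, *Psat1* with the block and only the groups compared (edgeR adjusted *P* = 0.0487), and *Lck* (0.0101) and *Cd80* (0.0269) without IL-4/IL-13 replicate 5, while *Col3a1* (0.0867) and *Dcn* (0.0764) no longer passed without IL-4/IL-13 replicate 1. The block changed no other call of a named gene. Causes were not tested. Median signs also changed for the T cell markers with no filter (−0.82, from 0.27) and the mast cell markers with only the groups compared (0.32, from −1.28, 1 gene tested).

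Genes near 0 counts have wide counting intervals. A single time and dose, cultured cells, and 4 mice bound the comparison, and transcript counts give neither protein, glycosylation, nor splicing of *Xbp1*.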

Other observations

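Each list can be read beside the tests of tunicamycin against the other groups, which share the tunicamycin libraries. Over all 13679 genes the median log2 difference of tunicamycin was −0.05 from naive macrophages, −0.01 from Sal003, −0.02 from oligomycin set A, and −0.01 from set B. For ER chaperones the medians were 2.15 from naive macrophages, 1.90 from Sal003, 1.86 from set A, and 1.93 from set B. For ISR effectors they were 1.96, 1.87, 0.50, and 1.04 in that order, and for tRNA synthetases 1.73, 1.26, 0.41, and 0.73.

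Interferon-stimulated genes had a median change near 0 against IL-4/IL-13 alone but not against the other 4 groups. Their median differences of tunicamycin were −2.51 from naive macrophages, −2.35 from Sal003, −1.98 from set A, and −2.26 from set B. *Ifit1* held 121 ± 6.28 CPM in naive macrophages, 4.23 ± 0.792 with IL-4/IL-13, 18.6 ± 0.962 with tunicamycin, 108 ± 51.7 with Sal003, and 76.5 ± 18.2 and 88.6 ± 38.8 with oligomycin sets A and B. *Oas3* held 408 ± 27.99, 76.4 ± 8.63, 16.2 ± 1.19, 821 ± 235, 420.4 ± 63.5, and 746 ± 236 CPM in the same order. For mtDNA-encoded subunits the medians were −0.36, 0.44, 0.91, and 1.13, and against Sal003 4 of the 7 tested were higher and 2 lower by adjusted *P*, the 2 lower by at least 2.5-fold.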
